A study of Homo sapiens with 12 samples.

Results

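The small Cajal body RNAs were followed on expression arrays of HEK293 cells that had received a mimic of the microRNA miR-1825 or a control RNA. They were chosen by symbol, as every gene of the array's platform annotation whose symbol starts with SNORA, SNORD or SCARNA, without the host genes whose symbols start with SNHG. That rule found 23 genes among the 14884 named genes of the table, and all 23 were SCARNA genes, each with 1 row (transcript cluster). Because 0 named rows carried a SNORA or SNORD symbol, the small nucleolar RNAs themselves were not analysed here, and the box classes were compared within the small Cajal body RNAs. A further 37519 of the 53617 rows are unnamed here.

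HEK293 is a line of human embryonic kidney cells transformed with adenovirus DNA. Cells were transfected with a synthetic hsa-miR-1825 mimic (6 arrays) or with a commercial negative control siRNA (6 arrays). Both RNAs were used at 5 nM, total RNA was taken 24 h later, and no untransfected cells were included. The labels do not say if replicates were separate cultures; the p-values therefore rest on the spread among these arrays, and that spread may be technical. In bulk RNA, fewer cells with an RNA and less of it per cell cannot be told apart. Of 5 measured HEK293 markers, 3 lay above the median row of the table, as did 3 of 7 markers of leukocytes, fibroblasts and hepatocytes, and no background level could be set to call a marker absent.

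Small Cajal body RNAs are guide RNAs that collect in the Cajal body, a nuclear compartment where spliceosomal small nuclear RNAs mature. By base pairing they direct the enzymes of their particles to single nucleotides of a small nuclear RNA. RNAs with C and D boxes direct ribose methylation by fibrillarin, and RNAs with H and ACA boxes direct pseudouridylation by dyskerin. A few carry both domains. Most are cut out of introns of other genes, so a probe cannot tell the mature RNA from unspliced host RNA.

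The transfected mimic is shown with the bases that define its targets. The sequence is the mature microRNA in RefSeq (GRCh38.p14, chr20:32237830-32237847, plus strand, written 5′ to 3′), with the seed, bases 2 to 8, in capitals. The sequences of the small Cajal body RNAs were not used here, so no search for the seed's complement GCACUGG was made in them.
hsa-miR-1825: uCCAGUGCccuccucucc

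All values below are log2 expression as deposited, and each difference is a log2 fold change, mimic minus control, from a limma fit over all 53617 rows with Benjamini-Hochberg adjustment over all of them. Rows differ in their probes, so the level of 1 row is not compared with that of another. On this scale 22 of the 23 small Cajal body RNAs had a mean at or above the median row (4.48), and 15 lay among the brightest 25% of rows (6.29 or more). SCARNA15 was the single one below the median row. Array medians lay between 4.44 and 4.51, and pairs of arrays correlated at 0.992 on average inside a group and 0.991 across groups.

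**Figure D1:**
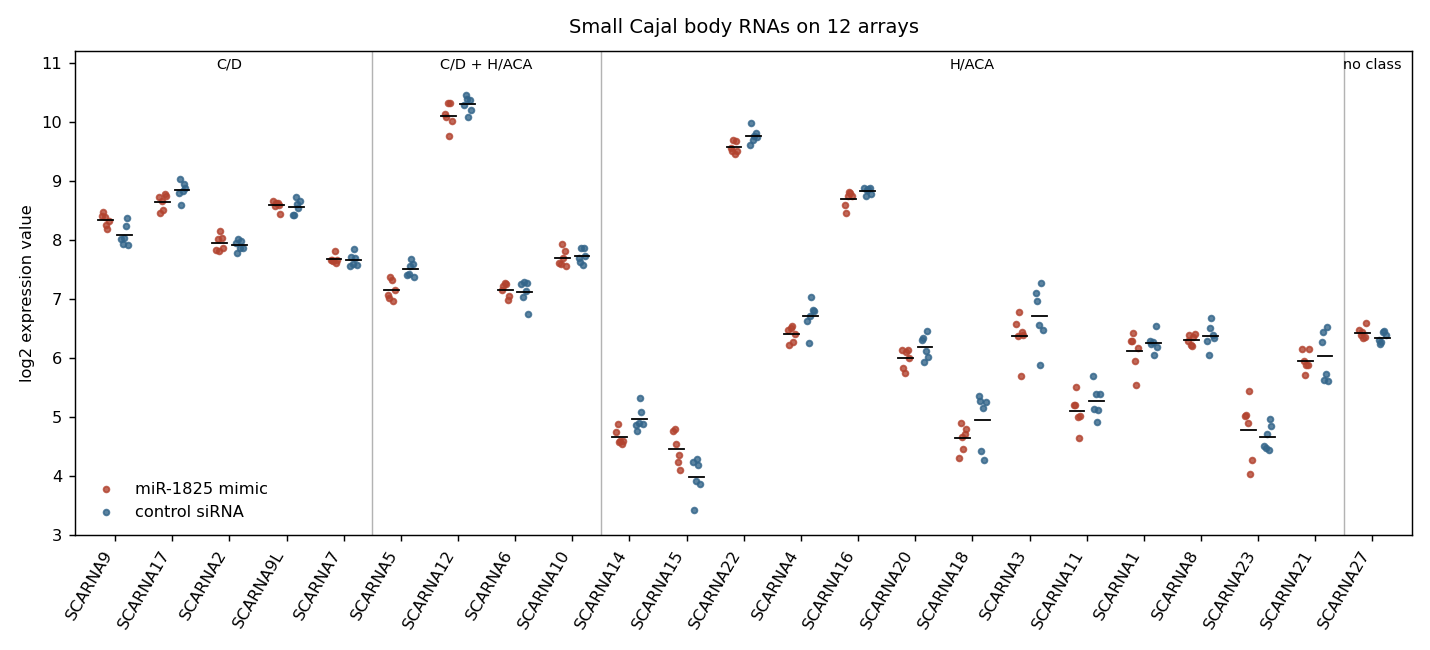
Log2 expression value (vertical axis) of the 23 small Cajal body RNAs (horizontal axis, grouped by box class) on 6 mimic arrays (left, red) and 6 control arrays (right, blue), with black lines at the group means. The groups overlap for every RNA except SCARNA5, where all 6 mimic arrays lie below all 6 control arrays.

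More small Cajal body RNAs had a lower than a higher mean after the mimic, and the differences were small. Of the 23, 15 (65.2%) had a lower and 8 a higher mean, with a median log2 fold change of -0.14, beside 53.4% lower and a median of -0.01 over all rows and 47.3% lower over the rows at or above the median row. None of the 23 passed the adjusted threshold of 0.05 in the limma fit, where 0.0112% of all rows did. At an unadjusted p under 0.05 there were 8 of 23 (34.8%), 6 lower and 2 higher, beside 10.8% of all rows (5.4% lower and 5.36% higher) and 13.1% of the rows at or above the median row. The arrays of the groups did not overlap for 1 of 23 (4.35%), beside 1.17% of all rows. Differences ran from -0.36 to 0.48, and 0 of 23 reached 1.5-fold. With quantile normalization 17 had a lower mean, and with each array centred on its median 15 did. Leaving out any one array gave 13 to 17 lower and a median between -0.16 and -0.07. It came nearest to 0 without mimic replicate 5 (-0.07) and without control replicate 1 (-0.09).

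**Figure D2:**
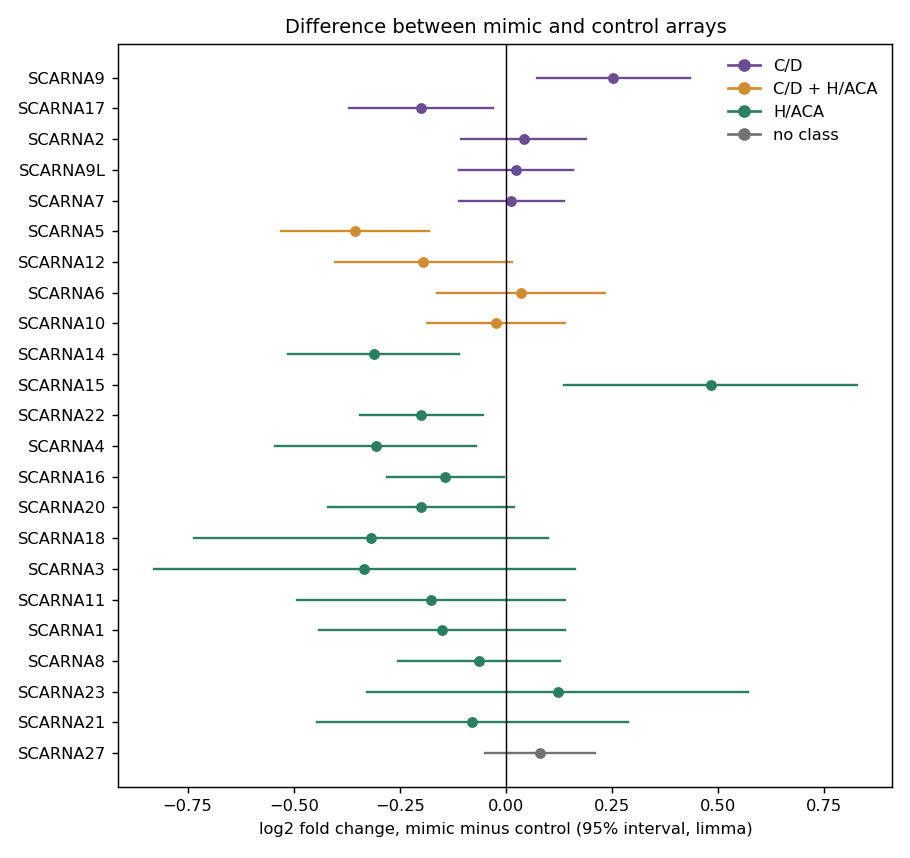
Log2 fold change (horizontal axis, mimic minus control) of each small Cajal body RNA (vertical axis) with its 95% limma interval, coloured by box class. Intervals of 8 RNAs lie clear of 0, those of SCARNA5, SCARNA14, SCARNA22, SCARNA4, SCARNA17 and SCARNA16 below it and those of SCARNA9 and SCARNA15 above it.

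The H/ACA RNAs held most of the lower means. Of 13, 11 (84.6%) had a lower mean as deposited, with quantile normalization and with centred arrays, with a median log2 fold change of -0.18. Their number with a lower mean was 10 to 12 when any one array was left out. At an unadjusted p under 0.05 there were 4 lower ones, SCARNA14, SCARNA22, SCARNA4 and SCARNA16, and 1 higher one, SCARNA15. Over all rows 53.4% had a lower mean, and at that p 5.4% were lower and 5.36% higher. Of the rows at or above the median row, 47.3% had a lower mean and 13.1% had such a p in either direction. The median within-group SD of the 13 was 0.26, beside 0.13 over the rows at or above the median row. The SDs of the 13 ran from 0.11 to 0.45, and those of SCARNA16 and SCARNA22 (0.11 each) lay below 0.13.

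SCARNA22, an H/ACA RNA from an intron of the histone methyltransferase gene NSD2, was among the brightest rows. Its lowest, median and highest values were 9.45, 9.53 and 9.70 on mimic arrays and 9.62, 9.75 and 9.99 on control arrays. All 6 mimic arrays lay below the control mean. The groups overlapped, since mimic replicates 3 and 5 exceeded control replicate 1 and mimic replicate 3 also exceeded control replicate 3. The means were 9.57 ± 0.10 with the mimic and 9.77 ± 0.13 in controls (SD, n = 6 each), a log2 difference of -0.20 (SE 0.07, limma adjusted p = 0.324). SCARNA16, which lies within the span of SNHG20 and SEC14L1, had a narrow control range of 8.75 to 8.88. Its mimic arrays spread from 8.46 to 8.82, with a median of 8.74 beside the control median of 8.86. Mimic replicate 2 was the lowest of them. The means were 8.69 ± 0.14 with the mimic and 8.83 ± 0.06 in controls, a log2 difference of -0.14 (limma adjusted p = 0.451).

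SCARNA4 had values of 6.22, 6.43 and 6.54 (lowest, median, highest) with the mimic and 6.26, 6.76 and 7.03 in controls. Control replicate 2, at 6.26, was the only control array inside the mimic range. The log2 difference was -0.31 (SE 0.11, limma adjusted p = 0.349), and it was -0.40 without control replicate 2. SCARNA14 gave 4.55, 4.59 and 4.88 with the mimic and 4.76, 4.89 and 5.32 in controls, close to the median row of the table. Only mimic replicate 2, at 4.88, exceeded any control array. Its log2 difference was -0.31 (95% interval -0.51 to -0.11, limma adjusted p = 0.282).

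SCARNA15 was 1 of 2 H/ACA RNAs with a higher mean on mimic arrays, with means of 4.46 ± 0.28 in mimic cells and 3.98 ± 0.33 in control cells (SD, n = 6 each). Its values were 4.10, 4.45 and 4.79 with the mimic and 3.42, 4.05 and 4.29 in controls, and control replicate 2 was the lowest array. The log2 difference of 0.48 (SE 0.16, limma adjusted p = 0.316) was the largest among the 23, at a level below the median row. The other of them, SCARNA23, had 0.12 with an interval from -0.33 to 0.57, and mimic arrays from 4.03 to 5.43 on both sides of a control range of 4.44 to 4.97.

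The remaining 7 H/ACA RNAs had lower means and intervals that include 0. SCARNA20 had a log2 difference of -0.20, with all 6 mimic arrays below the control mean, and SCARNA18 had -0.32, also with all 6 below it. SCARNA3 varied most of all 23, from 5.69 to 6.78 with the mimic and from 5.88 to 7.28 in controls. Its log2 difference of -0.33 had an SE of 0.23. Replicate 4 was its lowest array in each group. SCARNA11, SCARNA1, SCARNA8 and SCARNA21 had -0.18, -0.15, -0.06 and -0.08, and SCARNA21 was at 0.02 with control replicate 5 left out. SCARNA18 and SCARNA21 have copies listed in RefSeq (SCARNA18B, SCARNA21B) that could bind the same probes, so these assignments are uncertain.

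Among the 4 RNAs that carry both domains, SCARNA5 had the clearest difference of all small Cajal body RNAs and the interval of its neighbour SCARNA6 included 0. SCARNA5 read 7.08, 7.02, 7.37, 7.32, 6.96 and 7.15 on mimic replicates 1 to 6 and 7.41, 7.42, 7.56, 7.68, 7.60 and 7.38 on control replicates 1 to 6. All 6 mimic arrays lay below all 6 controls, with mimic replicate 3 and control replicate 6 within 0.01 of each other. Means were 7.15 ± 0.16 with the mimic and 7.51 ± 0.12 in controls, a log2 difference of -0.36 with an interval from -0.53 to -0.18, or 0.781-fold. Over all rows this did not pass (limma adjusted p = 0.224).

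SCARNA5 passed when the adjustment ran over the brightest 25% of rows alone (limma adjusted p = 0.0428). There 242 of 13405 rows (1.81%) were called, and 51 of the 13405 (0.38%) were called lower. The SCARNA5 call was fragile. With any one array left out it held in 2 of 12 fits, those without mimic replicate 3 (0.0495) and mimic replicate 4 (0.0391), and it reached 0.0876 without mimic replicate 1. It held with quantile normalization (0.0367), but with arrays centred on their medians the adjusted p was 0.0559 and in the brightest 40% of rows it was 0.0823. The fold change itself stayed between -0.40 and -0.32 in these fits.

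SCARNA6 lies in an intron of ATG16L1, the same autophagy gene that holds SCARNA5. Its values were 6.99, 7.19 and 7.27 with the mimic and 6.75, 7.19 and 7.28 in controls, where control replicate 6 was the lowest. The groups overlapped throughout and the log2 difference was 0.04 (interval -0.16 to 0.23, limma adjusted p = 0.926). Within an array, SCARNA5 minus SCARNA6 ran from -0.20 to 0.10 with the mimic and from 0.15 to 0.63 in controls, so these ranges did not overlap. This pair was picked with its values known and the shift of -0.39 between the groups was not tested.

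SCARNA12, in an intron of the prohibitin gene PHB2, had 9.76, 10.11 and 10.31 with the mimic and 10.09, 10.33 and 10.46 in controls. Its log2 difference was -0.20 (SE 0.10, limma adjusted p = 0.496). In each group replicate 4 was its lowest array, and without mimic replicate 4 the log2 difference was -0.13. SCARNA10, a guide for the U5 small nuclear RNA, had 7.56, 7.65 and 7.93 with the mimic and 7.58, 7.71 and 7.86 in controls, a log2 difference of -0.02 (interval -0.19 to 0.14, limma adjusted p = 0.940).

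The C/D RNAs showed no common direction. Of 5, 4 had a higher and 1 a lower mean as deposited (median log2 fold change 0.02), but 2 were higher and 3 lower after quantile normalization (median -0.0021). SCARNA17, which guides ribose methylation and lies within the SNHG22 locus, was the lower one, with 8.46, 8.69 and 8.78 on mimic arrays and 8.60, 8.86 and 9.03 on control arrays. All 6 mimic arrays lay below the control mean, and control replicate 3, the lowest control, lay inside the mimic range. The log2 difference was -0.20 (SE 0.08, limma adjusted p = 0.392).

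SCARNA9, a guide for the U2 small nuclear RNA, had the opposite difference. Its values were 8.19, 8.35 and 8.47 with the mimic and 7.92, 8.02 and 8.38 in controls. Control replicates 4 and 5 reached into the mimic range and the other 4 controls lay below it. Means of 8.34 ± 0.10 with the mimic and 8.08 ± 0.18 in controls gave a log2 difference of 0.25 (SE 0.08, limma adjusted p = 0.316). Without control replicate 5 it was 0.31, and in the brightest 25% of rows SCARNA9 then passed (limma adjusted p = 0.0396, beside 0.104 with all arrays). SCARNA9L, a copy of SCARNA9 on another chromosome with sequence close enough that probes may be shared, had a log2 difference of 0.02 with an interval from -0.11 to 0.16 and turned to -0.0021 after quantile normalization.

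SCARNA2, a guide for the U2 small nuclear RNA that lies in no other gene of the RefSeq table, had 7.82, 7.94 and 8.15 with the mimic and 7.77, 7.91 and 8.02 in controls. Its log2 difference was 0.04 (interval -0.11 to 0.19, limma adjusted p = 0.870). SCARNA7 had 0.01, with an interval from -0.11 to 0.14 that was the narrowest in the class, and -0.013 after quantile normalization. SCARNA27, for which no class was assigned, had 0.08 with an interval from -0.05 to 0.21.

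**Figure D3:**
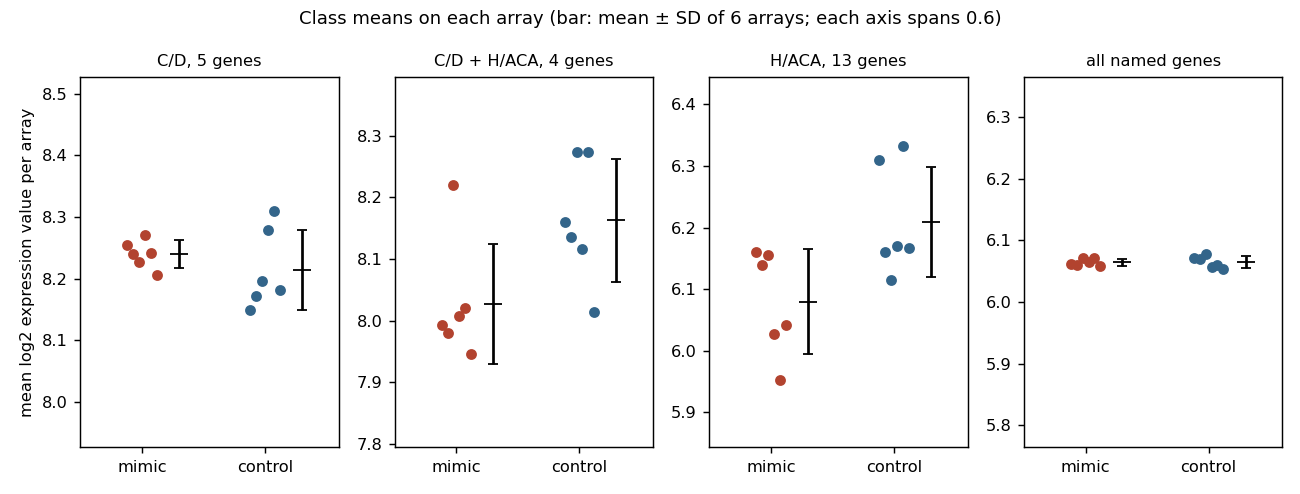
Mean log2 value per array (vertical axis) over the 5 C/D, 4 two-domain and 13 H/ACA RNAs and over all 14884 named genes, for mimic arrays (left) and control arrays (right), with the mean and SD of 6 arrays beside the points. The C/D means overlap fully, and the named genes differ by less than 0.001. Most mimic arrays lie below all controls for the two-domain RNAs. For the H/ACA RNAs mimic replicates 4, 5 and 6 do so, and mimic replicates 1, 2 and 3 lie inside the control range.

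Averaged over a class, the mean value per array was 6.08 ± 0.08 with the mimic and 6.21 ± 0.09 in controls for the H/ACA RNAs (SD, n = 6 each). It was 8.03 ± 0.10 with the mimic and 8.16 ± 0.10 in controls for the two-domain RNAs. For the C/D RNAs it was 8.24 ± 0.02 with the mimic and 8.21 ± 0.06 in controls. The H/ACA difference of -0.13 was not spread evenly over the arrays: mimic replicates 4, 5 and 6 had means of 6.03, 5.95 and 6.04, and mimic replicates 1, 2 and 3 had 6.16, 6.14 and 6.16. Control replicates 1 and 5 stood highest at 6.31 and 6.33, and the other 4 controls lay between 6.11 and 6.17. Mimic replicates 1 to 3 thus fell inside the range of the controls. The mean over all named genes was 6.06 in each group, with a difference of -0.0004. These class means were not tested.

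The measured genes that contain small Cajal body RNAs mostly had higher means. By position in RefSeq, 22 of the 23 lie within the span of another gene (strand was not used) and 21 within a protein-coding one. For 12 of them a protein-coding host was measured, in 11 host genes. Of these hosts 8 had a higher and 3 a lower mean, or 7 and 4 after quantile normalization, with a median log2 fold change of 0.06. Beside them, 7457 of all 14884 named genes had a higher mean as deposited and 7020 after quantile normalization. None passed the limma threshold and 2 had an unadjusted p under 0.05, both higher (beside 10.8% of all rows in either direction and 5.36% higher). The small RNA was lower and its host higher in 6 of 12 pairs, both were higher in 3, both were lower in 2, and SCARNA15 was higher while FSD2 was lower. SCARNA15 also lies within the span of the non-coding gene SNHG21, which was not measured. Since strand was not used, FSD2 may not be the gene it is cut from. Across the 12 pairs the fold changes of RNA and host had a Pearson r of -0.19 and a Spearman rho of -0.14, a description over genes that share the same 12 arrays. The pair of SCARNA15 (0.48) and FSD2 (-0.02) is the most extreme and weighs heavily on the Pearson r. No inverse relation is read from these coefficients.

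**Figure D4:**
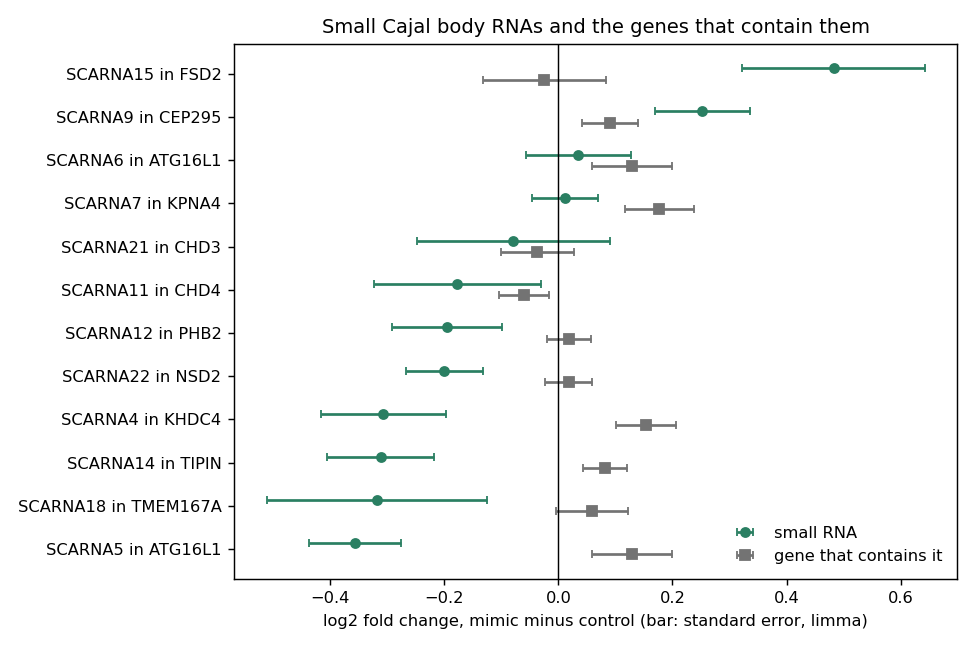
Log2 fold change (horizontal axis, mimic minus control, with standard error) of 12 small Cajal body RNAs (green circles) and of the protein-coding genes that contain them (grey squares). The squares stay between -0.06 and 0.18 and the circles run from -0.36 to 0.48.

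ATG16L1, which encodes a subunit of the autophagy conjugation complex and contains SCARNA5 and SCARNA6, had 7.28, 7.36 and 7.46 with the mimic and 6.96, 7.26 and 7.40 in controls. Its log2 difference was 0.13 (SE 0.07, limma adjusted p = 0.541). SCARNA5 minus ATG16L1 ran from -0.44 to -0.0036 on mimic arrays and from 0.08 to 0.52 on control arrays, without overlap, and was likewise not tested. KHDC4, the host of SCARNA4, had a log2 difference of 0.15, and SCARNA4 minus KHDC4 was -2.09 ± 0.17 with the mimic and -1.63 ± 0.26 in controls. KPNA4, an importin gene that holds SCARNA7, had 0.18, and it and KHDC4 were the hosts with an unadjusted p under 0.05. TIPIN, a replication fork protein gene around SCARNA14, had 0.08. NSD2 and PHB2, around SCARNA22 and SCARNA12, each had 0.02, with SEs of 0.04. CEP295, a centriole gene that holds SCARNA9, had 0.09 (limma adjusted p = 0.539), and the ranges of SCARNA9 minus CEP295 overlapped. SNHG20, whose span holds SCARNA16, had 0.16 (limma adjusted p = 0.348), beside -0.14 for SCARNA16. SCARNA16 minus SNHG20 ran from 0.889 to 1.3657 on mimic arrays and from 1.3659 to 1.647 on control arrays. These ranges met without overlapping, and the shift of -0.31 was not tested. Apart from this pair and both SCARNA5 pairs, the ranges of the pairs compared within an array overlapped. The arrays of SCARNA5 already did not overlap by themselves. SCARNA16 and SNHG20 each had an unadjusted limma p under 0.05, in opposite directions. Separation of these pairs was thus favoured in advance, and no share over other pairs of rows was computed.

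**Figure D5:**
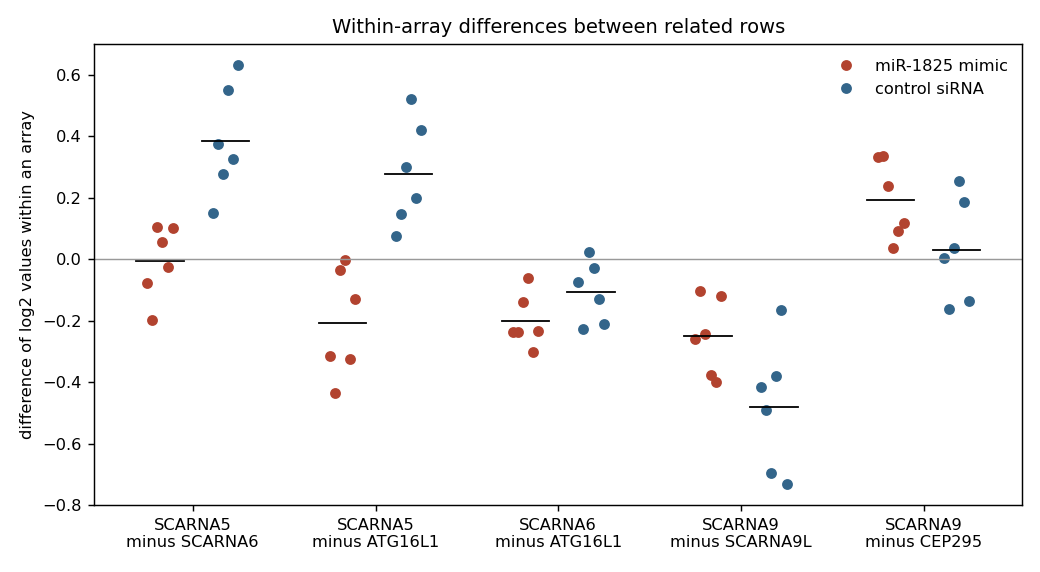
Difference of 2 log2 values on the same array (vertical axis) for 5 pairs of related rows (horizontal axis) on mimic arrays (left, red) and control arrays (right, blue), with lines at the means. Only the shift between groups can be read, since rows differ in their probes. Mimic and control arrays do not overlap for SCARNA5 minus SCARNA6 or SCARNA5 minus ATG16L1, and they overlap for the other 3 pairs.

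Other structured small RNAs that are not cut from introns also had mostly lower means. Of 7 measured, 5 were lower and 2 higher, or 6 and 1 after quantile normalization, with a median log2 fold change of -0.12. None passed in limma, and 4 had an unadjusted p under 0.05, all lower (beside 5.4% of all rows). They were the vault RNAs VTRNA1-2 (-0.49) and VTRNA1-3 (-0.22), the telomerase RNA TERC (-0.12), which has an H/ACA domain and passes through the Cajal body, and RPPH1 (-0.14), the RNA of ribonuclease P. TERC had 10.26, 10.29 and 10.39 with the mimic and 10.36, 10.38 and 10.59 in controls (limma adjusted p = 0.442). RMRP, the RNA of ribonuclease MRP, had a log2 difference of 0.0004 with an SE of 0.04, and RMRP, TERC and RPPH1 are named here after their values were seen. The part of a shift common to small structured RNAs in the lower means of the small Cajal body RNAs was not tested.

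Genes for proteins that build these particles had small differences in both directions. Of 3 measured core proteins of C/D particles, NOP58 had a log2 difference of 0.09 and the methyltransferase fibrillarin (FBL) of -0.07. FBL arrays ran from 11.67 to 11.76 with the mimic and from 11.76 to 11.87 in controls, without overlap by under 0.01 (limma adjusted p = 0.556). Of 3 core proteins of H/ACA particles, GAR1 had 0.08 and NHP2 -0.02, and 0 had an unadjusted p under 0.05. Of 8 assembly factors, 5 had higher means as deposited and 3 after quantile normalization, with NUFIP1, a C/D assembly factor, at 0.12 and RPAP3, of the HSP90 cochaperone complex, at 0.10. No gene of these 3 lists passed in limma.

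Cajal body and SMN complex genes had mostly higher means, with 12 of 13 higher as deposited, 9 after quantile normalization and 12 with arrays centred on their medians. The median log2 fold change was 0.09, 0 passed in limma, and 4 had an unadjusted p under 0.05, all higher (beside 5.36% of all rows). All 13 lie at or above the median row, and such rows leaned higher as deposited. At that p 2193 of these 26809 rows were higher and 1332 lower. After quantile normalization 1722 were higher and 1771 lower, and of the 13 genes 3 were higher and 1 lower. USPL1, a SUMO protease of the Cajal body, had 8.77, 8.78 and 8.80 with the mimic and 8.49, 8.62 and 8.74 in controls, without overlap (log2 difference 0.17, limma adjusted p = 0.274). GEMIN2, an SMN complex subunit, had 0.20 (limma adjusted p = 0.308), and COIL, the coilin gene whose protein marks the Cajal body, had 0.07 (limma adjusted p = 0.690).

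Genes for processing and decay of small RNAs had 13 of 17 higher means, 12 after quantile normalization, with a median log2 fold change of 0.04. Of these 0 passed in limma and 3 had an unadjusted p under 0.05, all higher: the exonuclease gene XRN1 (0.09), the exosome subunit gene EXOSC9 (0.15) and the exosome nuclease gene DIS3 (0.09). At that p 5.36% of all rows were higher. All 17 genes lie at or above the median row, where 14126 of 26809 rows had a higher mean and 2193 were higher at that p. After quantile normalization 1 of the 17 was higher at that p. Among 12 measured non-coding host genes of small nucleolar RNAs, 7 had higher means both as deposited and after quantile normalization, with a median of 0.04 and 0 past the threshold. GAS5, which hosts a set of C/D small nucleolar RNAs, had 9.77, 9.85 and 9.94 with the mimic and 9.55, 9.61 and 9.79 in controls. Its log2 difference was 0.20 (SE 0.05, limma adjusted p = 0.241 over all rows). With the adjustment over the brightest 25% of rows alone, where 1.81% of rows were called, GAS5 passed narrowly (limma adjusted p = 0.0480).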

How the data were processed

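The data are 12 Affymetrix Human Gene 2.0 ST arrays, 6 of mimic cells and 6 of control cells, with total RNA isolated on RNeasy Plus columns, per the labels' protocols. Per the submitters' processing notes, the authors made the deposited log2 values in Affymetrix Expression Console. Which version and which settings for background, normalization and summarisation they used is not stated in the labels used here, and the log2 scale was inferred from the range of 1.62 to 14.4. Values were used as deposited and 0 rows were left out. Rows were named through the platform annotation, and all 16098 identifiers matched RefSeq (GRCh38.p14) with 0 symbols changed. Hosts were genes whose RefSeq span contains the small RNA; member coordinates are left out, since no label names the build of the array design. Box classes were assigned from background knowledge through the RefSeq synonyms, after it was seen that no SNORA or SNORD row was named.

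Groups were compared with lmFit and eBayes of limma 3.58.1 (R 4.3.3), without a trend or block, two-sided, adjusted by Benjamini-Hochberg over all rows at 0.05; it was tested on simulated data. The number of arrays limits the precision. The members and lists were chosen with earlier results of these data known. Members described in full were the 5 with the smallest p at or above the median row, the 3 with the highest mean, those fixed by name, and any past the threshold in an alternative; the rule named them per class, but all 23 fell under 1 symbol class, and the others are given by their differences. Of each list of other genes the 2 with the smallest p, and the hosts of these members, were named, with further genes where a count of 5 or fewer asked for it; COIL and SCARNA15 were added after their values were seen. Over the rows at or above the median row, same-numbered arrays did not deviate together (correlations from -0.11 to 0.08), so no block was used. Single RNAs and a class mean can differ from this. For SCARNA3, SCARNA12 and the mean of the two-domain RNAs the same replicate number was lowest in both groups. A fit with the replicate block was run as an alternative. Alternatives were the scaling, filters on low values, the prior, the replicate block, 1 row per gene and leaving out each array. Planned comparisons of the SNORA and SNORD classes and of their repeat clusters, and a search for sequence words in the RNAs, were not analysed here.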

Additional observations from a re-analysis of the deposited data

Results flagged for a closer look

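In 54 groups of 6 arrays the highest or lowest array was checked for a gap to the others. The groups were 23 RNAs and 4 means over sets of genes, each in both treatments. Such a gap was present in 3 groups (by chance about 1 in 20 groups would have it). The class means are built from the same RNAs, so the groups are not independent. SCARNA9L was lowest in mimic replicate 6, at 8.44 against 8.58 to 8.66 on the other mimic arrays. For SCARNA7, mimic replicate 4 stood above the rest of its group, at 7.81, with the others from 7.61 to 7.67. For the mean of the two-domain RNAs, mimic replicate 3 did so at 8.22, with the others from 7.95 to 8.02. On control arrays replicate 3 was also near the top for this mean, at 8.273 beside a highest value of 8.274. Replicate 6 was lowest for it in both groups.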

How the results depend on the processing

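Fits of the brightest 40% of rows, and of the brightest 25% with a second setting changed, were chosen after seeing the data. The 6 rows past the threshold became 13 at or above the median row, 242 in the brightest 25%, 24 in the brightest 40%, 39 with a trend and robust prior, and 0 with 1 row per named gene. With the replicate block the count was also 0, with 0 small Cajal body RNAs past the threshold and 11 at an unadjusted p under 0.05; no other call changed with the block. In the brightest 25% the count was 239 with quantile normalization and 144 with centred arrays. Without single arrays it ranged from 0 to 6. The small Cajal body RNAs past the threshold were 1 in the brightest 25%, as deposited and with quantile normalization, 0 to 1 there without single arrays, and 0 in the other fits. Those at an unadjusted p under 0.05 were 6 to 9 without single arrays and 6 to 11 over all alternatives. The direction turned after quantile normalization for SCARNA9L (-0.0021) and SCARNA7 (-0.013). Without single arrays it turned for SCARNA10 (-0.069 to 0.0037), SCARNA21 (-0.17 to 0.019), SCARNA23 (-0.0092 to 0.27), SCARNA6 (-0.039 to 0.069), SCARNA7 (-0.014 to 0.049) and SCARNA9L (-0.0058 to 0.055), and the other 17 RNAs kept theirs in every fit run. The cause of these changes was not tested. Every gene here had 1 row, so the mean over rows of a gene gave the same values, and leaving out the SNORD repeat clusters was not run.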
